A study of Rattus norvegicus with 9 samples.

Results

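Bdnf, Cntf, Fgf2, Il1b and Il6 are 5 neurotrophic factor and interleukin genes whose DNA methylation signal was read in N27 cells, a dopaminergic neural cell line of the rat. Each was matched through its RefSeq accession to 1 probe, and each of these probes was printed at 10 spots on every array. They are 5 of the 1390 ten-spot probes and of the 30367 gene probes on the array. The genes were picked because the authors' deposited table holds values for them in both toxicant groups and none in the control group. Differences of either toxicant from control are therefore given as a description with no test, and only Mn against MPP+ was tested for them.

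The study compared untreated N27 cells with cells given manganese (Mn) or MPP+, the toxic metabolite of MPTP, each at a dose below the lethal one. Neither dose nor exposure time is stated in the labels. All 3 groups were grown in the same line and under the same standard conditions, with 3 arrays deposited per group from replicates that the submitters call independent. Genomic DNA (2 µg) was sheared to fragments of 1.5 to 2 kb, denatured and hybridised for 16 h to a rat gene expression array. An antibody to methylated cytosine was then bound to the fragments and made visible by a second antibody carrying Cy3. A spot therefore carries a relative signal from fragments that bind a transcript probe, without base resolution and without an absolute scale. Genomic DNA holds no expression markers, so the identity of the cells could not be checked.

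The files labelled as replicate 3 of control and as replicate 3 of Mn were equal at 100% of the 45220 spots, against at most 0.677% for any other pair of arrays. The array was kept once, as control replicate 3, which left 3 control, 2 Mn and 3 MPP+ arrays, and the differences from control are also given without it. Its file names array row 4, the row of control replicates 1 and 2, while Mn replicates 1 and 2 name row 3. With the Mn replicate 3 column left out, 5948 of 5952 ten-spot values in the authors' deposited table matched a spot on their own array. The control replicate 3 values were among those compared. The Mn replicate 3 values of Bdnf, Fgf2, Il1b and Il6 matched no spot of the gene on the shared array, while that of Cntf did. By position and by these values the file goes with control, and its label was not tested further. The files of control, Mn and MPP+ arrays name array rows 4, 3 and 1, and MPP+ replicate 3 was scanned at another position than MPP+ replicates 1 and 2. No position holds arrays of more than 1 group, so the part of position in a difference between groups was not tested apart from treatment.

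Methyl groups on cytosines that precede guanine (CG sites) are known to mark silenced promoters, and antibody staining is one way to read their density. Bdnf, the main neurotrophin of the adult brain, acts on the TrkB receptor and keeps dopaminergic neurons alive in culture. Cntf signals through the gp130 receptor chain that Il6 also uses, and Fgf2 acts on tyrosine kinase FGF receptors. Il1b and Il6 are inflammatory cytokines that in the brain come mainly from glia, and the Bdnf gene is known for a string of alternative promoters.

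RefSeq windows (build GRCr8) covering the 250 bases before a transcription start were found for all 5 genes, 10 windows in all, 6 of them for Bdnf. The CG motif, which reads the same on both strands and whose copies cannot overlap, was counted in each. Over 33469 such windows of the rat genome, 92.2% held at least 1 CG and the median was 5. The windows of Fgf2, Il1b and Il6 are printed here because these are the genes with at least 1 pair of groups whose arrays did not overlap. They are read 5′ to 3′ on the gene's own strand, with each CG in capitals. The Fgf2 window (chr2:122164204-122164453, plus strand) held 9 CG, a number reached by 38.5% of all windows. The Il1b window (chr3:137036582-137036831, minus strand) and the Il6 window (chr4:5894576-5894825, minus strand) held 2 each, reached by 81.9%.
Fgf2: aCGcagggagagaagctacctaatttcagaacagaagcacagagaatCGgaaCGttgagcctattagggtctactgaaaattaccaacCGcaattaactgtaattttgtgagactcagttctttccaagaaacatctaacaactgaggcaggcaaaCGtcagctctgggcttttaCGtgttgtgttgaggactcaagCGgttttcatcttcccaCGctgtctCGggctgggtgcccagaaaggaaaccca
Il1b: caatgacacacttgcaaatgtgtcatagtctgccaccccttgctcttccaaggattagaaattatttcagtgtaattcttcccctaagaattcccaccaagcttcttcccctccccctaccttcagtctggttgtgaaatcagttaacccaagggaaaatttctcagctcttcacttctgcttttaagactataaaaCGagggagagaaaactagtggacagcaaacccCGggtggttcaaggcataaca
Il6: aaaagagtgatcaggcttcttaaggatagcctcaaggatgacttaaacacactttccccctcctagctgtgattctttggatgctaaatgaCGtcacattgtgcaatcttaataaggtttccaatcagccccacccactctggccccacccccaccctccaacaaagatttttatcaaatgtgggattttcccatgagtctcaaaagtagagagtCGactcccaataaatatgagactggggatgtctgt
The Cntf window held 3 CG, and the 6 Bdnf windows held between 1 and 12. The probes' own sequences were not used here, so it was not tested whether the fragments that bound a probe reach these windows. The counts are given as context only.

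Levels below are the mean over a probe's 10 spots of the log2 ratio of spot median to local background median, and the SE is over those 10 spots. A level of 0 means a spot as bright as its surroundings. Over the 1390 ten-spot probes, the array medians of this level lay between 0.09 and 0.23, and the SD between probes was 0.156 to 0.193. The SD that the spots' own SE alone would give was 0.158 to 0.190. Levels of the same probes correlated at -0.06 to 0.05 between arrays of a group (Pearson's r, 7 pairs) and at -0.04 to 0.05 between arrays of different groups (21 pairs), so the arrays shared almost no ranking of probes. The mean over 757 blank spots was 0.12 to 0.21, and the median spot intensity was 165 to 236 against a background of 157 to 221.

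The 5 genes sat within this spread. Their 40 levels (5 genes on 8 arrays) ran from -0.09 to 0.50, with a median SE of 0.159. Of the 40, 22 lay above the array's median ten-spot probe and 33 lay between its 10th and 90th percentiles. None of the 40 exceeded the blank mean by over 2 SE of blank means of 10 spots. None exceeded the mean background by over 2 background SDs, which 121 of 11120 levels (1.09%) of all ten-spot probes did. Single spots of the genes passed this bound in 17 of 400 cases (4.25%), never more than 1 per gene and array, against 3.23% over all ten-spot probes and 2.91% over blanks. One of the 17, for Il1b on control replicate 1, passed because its recorded background SD was 0.

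**Figure D1:**
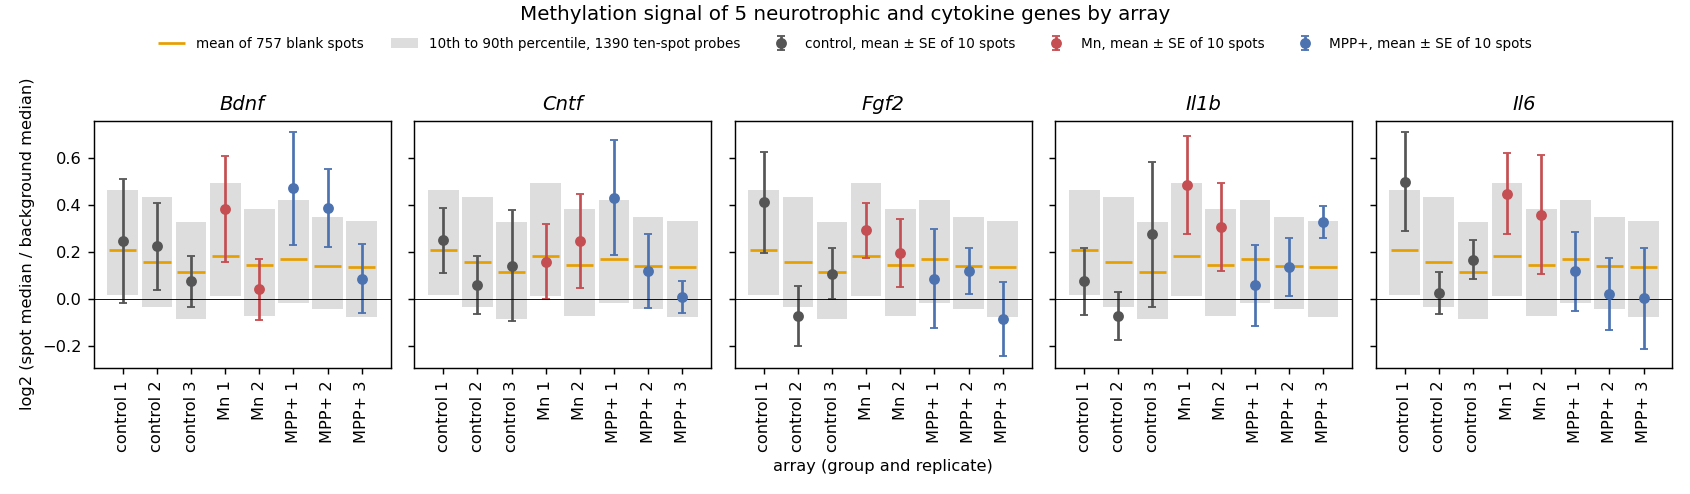
Level of each gene on each of the 8 arrays (horizontal axis, group and replicate), as the mean log2 ratio of spot to background over 10 spots with its SE (vertical axis). Grey boxes span the 10th to 90th percentiles of 1390 ten-spot probes and orange bars mark the mean of 757 blank spots, and 33 of the 40 points fall inside the boxes.

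Bdnf (NM_012513) gave the highest group mean among the MPP+ arrays, where it also varied widely. Its level was 0.25, 0.22 and 0.07 on control replicates 1 to 3. It was 0.38 and 0.04 on Mn replicates 1 and 2. On MPP+ replicates 1 to 3 it was 0.47, 0.39 and 0.09. MPP+ replicates 1 and 2 stood at percentiles 92.8 and 93.5 of the ten-spot probes, while MPP+ replicate 3, Mn replicate 2 and control replicate 3 lay below the array median, and all 3 groups overlapped. Group means were 0.18 ± 0.09 (SD, n = 3) in control, 0.21 ± 0.24 (SD, n = 2) in Mn and 0.32 ± 0.20 (SD, n = 3) in MPP+. The difference from control was 0.03 for Mn and 0.13 for MPP+, and without control replicate 3 these were -0.02 and 0.08. With each array left out in turn, the Mn difference ran from -0.14 (without Mn replicate 1) to 0.20 (without Mn replicate 2) and the MPP+ difference from 0.06 (without MPP+ replicate 1) to 0.25 (without MPP+ replicate 3).

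One Bdnf spot carried much of this. The spot in row 170, the last row of the array, averaged 0.90 over the 8 arrays, against 0.17 for the other 9 spots. It was the brightest Bdnf spot on 4 of 8 arrays, reading 1.88 on control replicate 1 and 2.37, 1.41 and 0.96 on MPP+ replicates 1 to 3. Among all ten-spot probes, 90 (6.47%) had 1 spot that was brightest on at least 4 arrays. With the outer 2 rows of the array left out, the Bdnf difference of MPP+ from control was 0.07 and that of Mn was 0.13, so the order of the toxicants turned.

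Cntf (NM_013166), a survival factor for motor and ciliary neurons, showed no group that stood apart. Its level was 0.25, 0.06 and 0.14 on control replicates 1 to 3. It was 0.16 and 0.25 on Mn replicates 1 and 2. On MPP+ replicates 1 to 3 it was 0.43, 0.12 and 0.0070. The highest and the lowest of these 8 levels were both MPP+ arrays, and the groups overlapped throughout. Means were 0.15 ± 0.09 (SD, n = 3) in control, 0.20 ± 0.06 (SD, n = 2) in Mn and 0.19 ± 0.22 (SD, n = 3) in MPP+, so both differences from control, 0.05 and 0.04, were smaller than the SD of every group. Without control replicate 3 they were 0.05 and 0.03. With each array left out in turn, the Mn difference ran from 0.0071 (without control replicate 2) to 0.10 (without control replicate 1) and the MPP+ difference from -0.09 (without MPP+ replicate 1) to 0.12 (without MPP+ replicate 3).

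Fgf2 (NM_019305), the basic fibroblast growth factor, was higher on both Mn arrays than on any MPP+ array. Its level was 0.41, -0.07 and 0.11 on control replicates 1 to 3. It was 0.29 and 0.20 on Mn replicates 1 and 2. On MPP+ replicates 1 to 3 it was 0.09, 0.12 and -0.09. The control arrays spanned wider than both toxicant groups together, from percentile 5.47 to 84.0 of the ten-spot probes. Means were 0.15 ± 0.24 (SD, n = 3) in control, 0.24 ± 0.07 (SD, n = 2) in Mn and 0.04 ± 0.11 (SD, n = 3) in MPP+. Mn lay 0.09 above control and MPP+ -0.11 from it, or 0.07 and -0.13 without control replicate 3. Both directions rest on single control arrays: without control replicate 1 the differences were 0.23 and 0.02, and without control replicate 2 they were -0.02 and -0.22.

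Il1b (NM_031512), a fever-inducing cytokine released after cleavage by caspase-1, was the only 1 of the 5 genes whose Mn arrays all lay above its control arrays. Its level was 0.07, -0.07 and 0.28 on control replicates 1 to 3. It was 0.49 and 0.31 on Mn replicates 1 and 2. On MPP+ replicates 1 to 3 it was 0.06, 0.14 and 0.33. The gap between the lower Mn array and control replicate 3 was within the SE of either, 0.187 and 0.308. Such separation of Mn above control was found for 12.2% of the ten-spot probes and separation below control, which none of the 5 genes showed, for 7.48%. Since the genes were picked on this contrast, nothing is read from it. Means were 0.09 ± 0.17 (SD, n = 3) in control, 0.40 ± 0.13 (SD, n = 2) in Mn and 0.17 ± 0.14 (SD, n = 3) in MPP+. The Mn difference of 0.30 stood at percentile 95.0 of all ten-spot probes, and 7.63% of them differed more in size. The MPP+ difference was 0.08. Without control replicate 3 the control mean was 0.0017, and the differences were 0.40 and 0.17. The brightest Il1b spot on control replicate 3 read 2.60, and without it the level there was 0.02. With spot means in place of spot medians, the differences from control were 0.11 for Mn and -0.14 for MPP+. The lowest Mn difference with 1 array left out was 0.21, without Mn replicate 1. The MPP+ difference was -0.00010 without control replicate 2 and 0.0051 without MPP+ replicate 3.

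Il6 (NM_012589), a cytokine that signals through gp130, had high mean levels on both Mn arrays and low ones on all 3 MPP+ arrays. Its level was 0.50, 0.03 and 0.17 on control replicates 1 to 3. It was 0.45 and 0.36 on Mn replicates 1 and 2. On MPP+ replicates 1 to 3 it was 0.12, 0.02 and 0.0031. On Mn replicate 2 the median of the 10 Il6 spots was 0.01, against the mean of 0.36 (SE 0.254). The Il6 spot in row 156 averaged 0.67 over the 8 arrays, against 0.15 for the other 9 spots. It read 1.48 and 1.33 on Mn replicates 1 and 2, 1.48 on control replicate 1 and 1.01 on MPP+ replicate 3. Control replicate 1 gave the highest of the 40 levels and control replicate 2 a level within the MPP+ range, so control overlapped both toxicant groups. Means were 0.23 ± 0.24 (SD, n = 3) in control, 0.40 ± 0.06 (SD, n = 2) in Mn and 0.05 ± 0.06 (SD, n = 3) in MPP+. Mn lay 0.17 above control and MPP+ -0.18 from it, or 0.14 and -0.21 without control replicate 3. They were 0.31 and -0.05 without control replicate 1, and 0.07 and -0.28 without control replicate 2. For MPP+, no gene of the 5 was separated from control in either direction, against 3.38% of ten-spot probes separated upward and 5.4% downward.

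**Figure D2:**
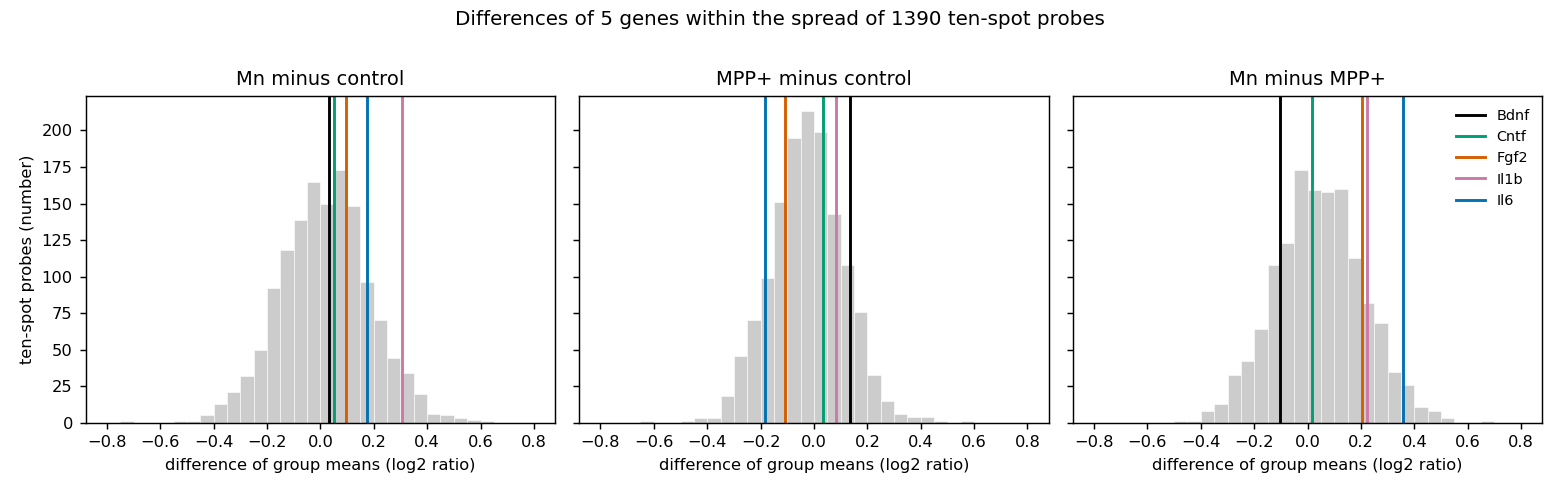
Number of ten-spot probes (vertical axis) by difference of group means on the log2 ratio scale (horizontal axis), for Mn minus control, MPP+ minus control and Mn minus MPP+. Coloured lines mark the 5 genes, of which Il1b at 0.30 in Mn minus control and Il6 at 0.36 in Mn minus MPP+ lie farthest out.

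The comparison of Mn with MPP+ asks whether the 2 toxicants left different signals on the same genes. None of the 5 genes passed limma's test with Benjamini-Hochberg adjustment over the 1390 ten-spot probes, of which 0% were called, while 68 (4.89%) had an unadjusted p under 0.05. The smallest adjusted p of any ten-spot probe was 0.169. With scan position as a random block 1 probe was called, none of the 5 genes. Il6 had the widest gap, with Mn higher by 0.36 ± 0.159 (SE of the fit, 95% interval 0.031 to 0.68, limma adjusted p = 0.893). It was among the 68 probes with an unadjusted p under 0.05, and both Mn arrays exceeded all 3 MPP+ arrays, and 3.67% of ten-spot probes differed more in size. The MPP+ mean of Il6, 0.05, lay below the blank means of those arrays.

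Fgf2 was higher in Mn by 0.20 ± 0.161 (interval -0.12 to 0.53, limma adjusted p = 0.917), again with both Mn arrays above all 3 MPP+ arrays. Separation of Mn above MPP+ was thus seen for 2 of 5 genes, against 15.3% of all ten-spot probes, and the opposite for none, against 6.26%. With the shared array counted as Mn, Fgf2 overlapped (0.11 on that array, below MPP+ replicate 2), and Mn above MPP+ was left for Il6 alone of the 5 genes, against 4.82% of ten-spot probes. Il1b was higher by 0.22 ± 0.157 (interval -0.10 to 0.54, limma adjusted p = 0.917), with MPP+ replicate 3 above Mn replicate 2. Bdnf differed by -0.10 ± 0.161 (interval -0.43 to 0.23, limma adjusted p = 0.963), and this difference turned to 0.07 without the outer 2 rows. Cntf differed by 0.016 ± 0.158 (interval -0.31 to 0.34, limma adjusted p = 0.998), and its direction varied with the processing. The intervals leave room for differences of up to 0.68 in size, so these p-values do not show that the toxicants left the same signal. In simulated data of this size, limma called 4.48% of 67 probes that differed by 0.25, 53.7% of 67 that differed by 0.5 and 100% of 66 that differed by 1. All 3 sets were changed together, in noise of 1 common SD (0.185), which eases the adjusted threshold. These shares therefore do not carry over to data in which few probes differ.

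Over the ten-spot probes as a whole, limma called 0 for Mn against control (79 with an unadjusted p under 0.05, smallest adjusted p 0.335) and 0 for MPP+ against control (45, and 0.995). With scan position as a random block these counts were 10 and 2. The middle 80% of differences ran from -0.19 to 0.23 for Mn minus control, from -0.20 to 0.15 for MPP+ minus control and from -0.17 to 0.26 for Mn minus MPP+. The first 2 of these comparisons share the control arrays.

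The values that put these genes in the authors' deposited table can be traced to single spots. That table gives a signal to noise ratio, the spot median over the SD of the local background, for 1 spot per probe, with no value below 1. It lists 1241 ten-spot probes, among them 221 (15.9% of 1390) with values for both toxicants and none for control, the 5 genes included. In the authors' deposited table Bdnf has 4.03 and 1.61 for Mn replicates 1 and 2 and 1.48, 2.23 and 1.13 for MPP+ replicates 1 to 3, the last being the lowest of the 5 genes. Il6 has 1.90 and 2.85 in the authors' deposited table for Mn and 3.73, 1.86 and 2.68 for MPP+. For Mn replicate 3 the authors' deposited table gives Il6 5.90, which matches no Il6 spot on the 8 arrays used. It gives Cntf 1.20 there, which equals the ratio of 1 Cntf spot on the shared array. Its values there for Bdnf (1.96), Fgf2 (1.74) and Il1b (2.28) match no spot of the gene on the shared array within 0.006.

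The other 3 genes had values of the same order. In the authors' deposited table Il1b has 2.28 and 1.38 for Mn and 4.21, 3.11 and 2.99 for MPP+. Fgf2 has 2.08 and 1.72 in the authors' deposited table for Mn and 2.35, 2.13 and 3.01 for MPP+. Cntf has 3.60 and 2.21 in the authors' deposited table for Mn and 1.51, 2.65 and 1.45 for MPP+.

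All 25 of these values for Mn replicates 1 and 2 and MPP+ replicates 1 to 3 matched the ratio of a spot of the gene on that array within 0.006. The spot was the highest of the 10 in 8 cases and the second highest in 9, and it lay above the median of the 10 in 21 of 25 (84.0%). Over all ten-spot probes, 5948 of 5952 values (99.9%) matched a spot, which was the highest in 36.0% and above the median in 86.7%. For the 5 genes and 2 toxicants, the spot was the same on all located arrays of a group in 1 of 10 cases (Il1b in Mn), against 4.79% over all ten-spot probes. A value in that table thus came mostly from one of the brighter spots of the 10, and mostly from a different spot on each array.

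**Figure D3:**
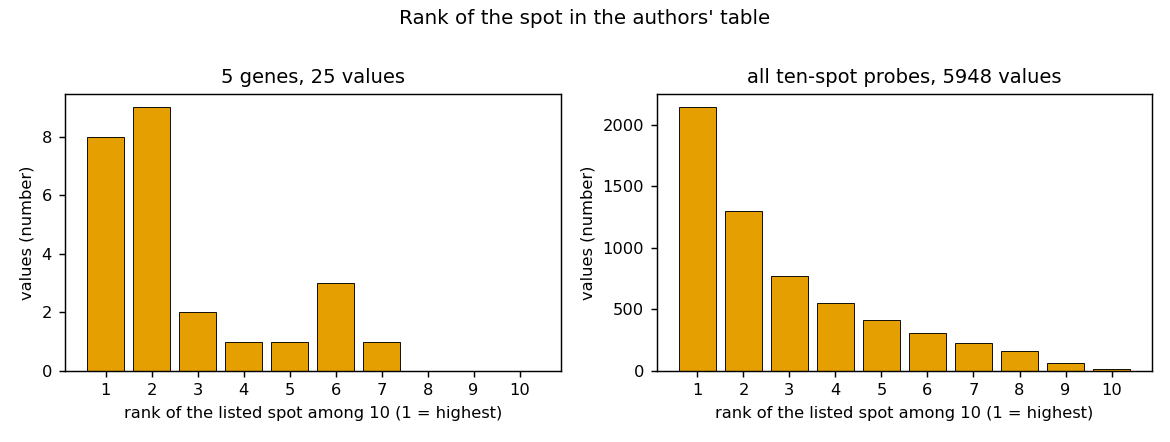
Number of values (vertical axis) by the rank of the spot in the authors' table among a probe's 10 spots on that array (horizontal axis, 1 is the highest signal to noise ratio), for the 5 genes (left, 25 values) and for all ten-spot probes (right, 5948 values). Ranks 1 and 2 hold 17 of the 25 values of the 5 genes.

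Spots that would meet the table's lowest value were present on the control arrays too. For Bdnf, 25 of 30 control spots had a ratio of at least 1, 6 of the 10 on every control array, and the highest was 8.23. For Fgf2 these were 26 of 30, with 6 on every array and a highest ratio of 4.98. Il6 had 23 of 30 and 5 on every array, up to 2.85. Cntf had 21 of 30 and Il1b 17 of 30, each with 2 on every array, up to 3.94 and 4.31, and 1 of the other Il1b spots had no ratio because its background SD was 0. Over all ten-spot probes, 76.7% of control spots, 76.4% of Mn spots and 83.9% of MPP+ spots had a ratio of at least 1. Absence from the control columns of the table is therefore not absence of such spots on the control arrays, and the labels do not say how the listed spots and probes were chosen.

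**Figure D4:**
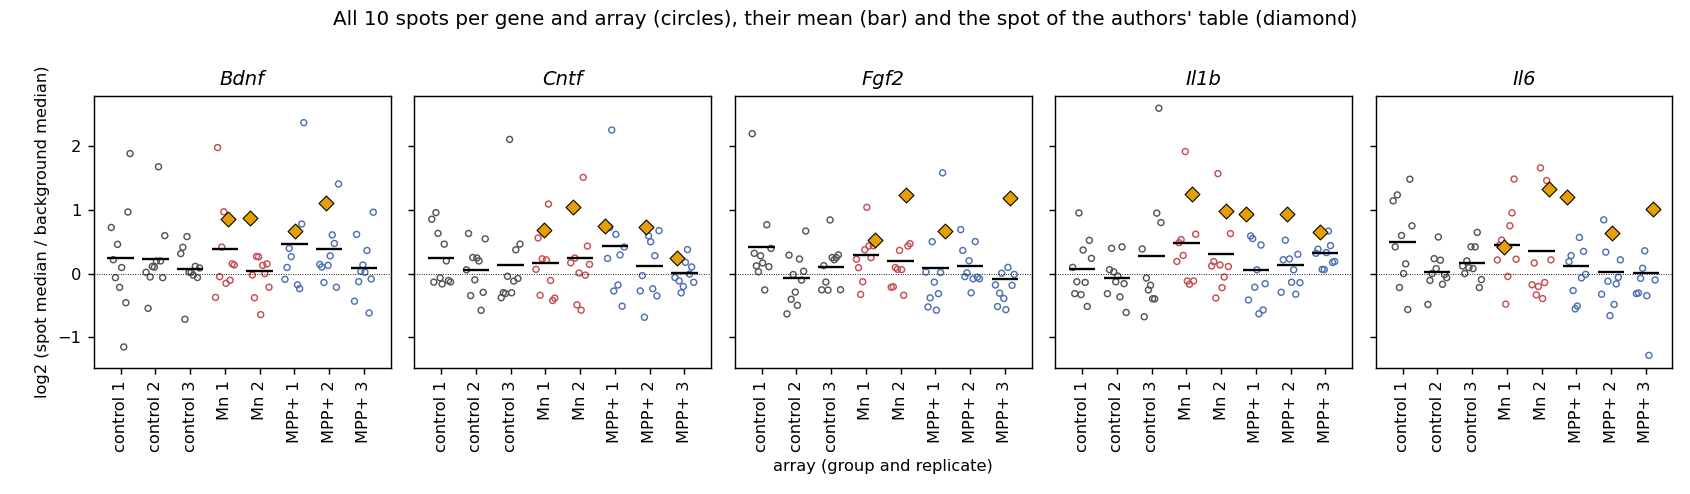
All 10 spots of each gene on each of the 8 arrays (circles, log2 ratio of spot to background on the vertical axis), with their mean (bar) and the spot found in the authors' table where 1 spot alone matched (diamonds, 23 of 25). The diamonds lie mostly among the brighter circles, and control arrays hold circles as high.

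Leaving out the listed spot lowered the toxicant mean of every one of the 5 genes, in Mn and in MPP+. The listed spot was left out where 1 spot alone matched the value, and Bdnf on MPP+ replicate 3 and Fgf2 on MPP+ replicate 2, whose values matched 2 and 3 spots, kept all 10. The difference of Mn from control was then -0.04 for Bdnf, -0.02 for Cntf, 0.02 for Fgf2, 0.22 for Il1b and 0.12 for Il6. For MPP+ these were 0.10, -0.01, -0.18, 0.01 and -0.28 in the same order, of which the first and the third mix arrays with 9 and 10 spots. Control arrays kept all 10 spots here because no control spot is listed for these genes, so the toxicant levels lost a spot that tended to be bright and the control levels did not. Over the 221 probes listed like these genes, the median difference of Mn from control went from 0.08 with all 10 spots to -0.01 without the listed spot. For MPP+ it went from 0.02 to -0.04. Like the 5 genes, these 221 could lose a spot on toxicant arrays only, so the fall follows from the setting and is no test. The medians of the other 1169 ten-spot probes were 0.01 and 0.01 for Mn and -0.04 and -0.02 for MPP+. Those 1169 include the 672 ten-spot probes listed for control, which could lose control spots too, so they are not a like comparison.

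Related genes were taken from a list of 84 neurotrophins, GDNF, CNTF and FGF family members, cytokines, growth factors and their receptors. Ten-spot probes covered 20 of them, the 5 genes included, and 0 rose or fell by limma's test in any comparison. Without the 5 genes, which were picked on the contrasts with control, 11 of the other 15 lay above 0 for Mn minus control, against 54.1% of all ten-spot probes, with a median of 0.12 against 0.02. For MPP+ minus control 5 of 15 lay above 0, against 42.4%, with a median of -0.04 against -0.03. For Mn minus MPP+ 12 of 15 lay above 0, against 59.3%, with a median of 0.15 against 0.04. With the 5 genes included the counts were 16, 8 and 16 of 20.

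Among receptors, Il6r, the ligand-binding chain for Il6, differed by 0.16 for Mn minus MPP+. Of the 15 ten-spot genes left without the 5, it was the highest for Mn minus control at 0.26 ± 0.162 (SE of the fit). Ngfr, the p75 receptor shared by the neurotrophins, was the highest of these 15 for MPP+ minus control at 0.18. Csf1, the growth factor of macrophages and microglia, was the highest of the 15 for Mn minus MPP+ at 0.36 ± 0.161 (limma adjusted p = 0.893), with means of 0.11 in control, 0.35 in Mn and -0.0011 in MPP+. Nlrp3, the inflammasome sensor upstream of Il1b cleavage, was the lowest of the 20 in all 3 comparisons, at -0.40 ± 0.159 for Mn minus control (limma adjusted p = 0.874), -0.23 for MPP+ minus control and -0.17 for Mn minus MPP+. The other 66 genes with probes were read by 86 one-spot probes in a fit of their own, and limma called 0 of them in any comparison. For Mn minus MPP+, the 3 probes of the TrkB receptor gene Ntrk2 gave -0.28, 0.18 and 0.21, and the probe of the gp130 gene Il6st gave -0.63 ± 0.531.

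Across the 8 arrays, after subtracting each array's ten-spot median, Fgf2 and Il6 had like patterns (Pearson's r = 0.88), while the other 9 pairs of the 5 genes lay between -0.37 and 0.31. Among 1183 other ten-spot probes with 1 symbol, the 2 most like Bdnf were Rabl2 (0.87) and Tacr1 (0.87), and the 2 most like Cntf were C13h1orf74 (0.92) and Spib (0.91). Ripk1 (0.95) and Srsf4 (0.93) were most like Fgf2, Prkaa2 (0.90) and Pgm1 (0.90) most like Il1b, and Cpxm2 (0.92) and Srsf4 (0.92) most like Il6. These are the highest of many correlations over 8 points that share the same arrays, and no test was made of them.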

How the data were processed

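The authors deposited 1 scanner output per array, with spot and local background intensity on a linear scale and a signal to noise ratio per spot, per the file headers. Per the labels, ScanArray software acquired the data, with no version stated. The value table that the authors deposited holds a ratio, too: the signal to noise of 1 spot per probe, unlogged and neither centred nor background-subtracted.

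From the Cy3 medians, log2(spot median / background median) was averaged over the 10 spots of each ten-spot probe. No spot was removed, since no source used here says what the scanner's codes mean. limma 3.58.1 in R 4.3.3 (lmFit, eBayes, 1 mean per group, 8 arrays, two-sided, Benjamini-Hochberg at 0.05) was fitted over 1390 ten-spot probes and, apart from them, over 28977 one-spot probes. The fit has 5 residual degrees of freedom, and the number of arrays limits the precision. It was tested on simulated data, where 3 unchanged probes were called.

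Named genes were the 5 members, the 2 most alike probes of each and the extremes of the list among ten-spot probes. Ntrk2 and Il6st were named besides, as receptor genes for the members. The members and lists were chosen with earlier results of these data known. Alternatives changed the spot summary, background, normalization, spots, arrays and variance model. Tables and figures were made with Python 3.11.15.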

Additional observations from a re-analysis of the deposited data

How the results depend on the processing

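Each difference was recomputed under 25 alternatives, some of which repeat each other or cannot move it, such as leaving out an array of the group not compared, so only distinct values that moved are counted here. For Mn minus MPP+, Il6 (0.18 to 0.42, limma adjusted p 0.284 to 0.995, the authors' deposited table included), Fgf2 (0.06 to 0.28) and Il1b (0.03 to 0.31) kept their sign in 17 of 17 such values, Bdnf in 16 of 18 and Cntf in 4 of 17. The authors' deposited table holds 1 spot per probe on another scale and is not counted among these. Its fit included the Mn replicate 3 column, which is left out elsewhere. There Bdnf was 0.59, Cntf 0.24, Fgf2 -0.43, Il1b -0.82 and Il6 0.26. The Il6 value of that column, 5.90, was above those of Mn replicates 1 and 2, 1.90 and 2.85. Bdnf turned to 0.065 without the outer 2 rows, and its range with 1 array left out was -0.27 to 0.067. Cntf, near 0 throughout, turned to -0.026 with array medians subtracted, -0.073 with 1-channel arrays only, -0.0025 without the brightest and dimmest spot, -0.014 without the deposited spot, -8.6e-06 with the median over spots, -0.021 with quantile normalization, -0.031 with the replicate block, -0.0042 with the shared array counted as Mn, -0.045 with the spot mean, -0.00068 with scan position as a random block and -0.11 with scanner code 1 only. Its range with 1 array left out was -0.073 to 0.14. Against control, the Mn difference kept its sign in 16 of 16 for Il1b, 15 of 16 for Fgf2 and Il6, 12 of 16 for Cntf and 9 of 17 for Bdnf. The MPP+ difference kept it in 18 of 18 for Bdnf, 17 of 17 for Il6, 16 of 17 for Fgf2, 15 of 17 for Il1b and 12 of 17 for Cntf. The cause of these changes was not tested.

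Calls over all ten-spot probes stayed at 0 except in the fits named here. The authors' deposited table, its Mn replicate 3 column included, gave 2 for MPP+ against control (of 384 probes with values). Leaving out 1 array gave 0 to 2 for Mn against MPP+ and 0 to 2 for Mn against control, with 2 in each only without Mn replicate 2, where the lone Mn array is assumed to vary like the other groups. Scan position as a random block gave 10 for Mn against control, 2 for MPP+ against control and 1 for Mn against MPP+, none of the 5 genes among the last. Its estimated correlation was -0.26, a negative value that narrows the SE, and it rests on arrays of 1 group at each position. Same-numbered arrays deviated together by r = -0.033 to 0.063. Arrays of 1 group shared almost no ranking of probes either, so these values cannot show whether the numbers pair the samples. The replicate block gave 0 calls in each comparison. The filter on dim probes left no probe and gave no value. The choices of scanner code, outer rows, scan position and the group of the shared array were added after seeing the data. None of the 40 levels of the 5 genes exceeded the blank mean by over 2 SE, so signal over background limits what these arrays can show.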

Other observations

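Control replicate 3 and MPP+ replicate 3 carry a second channel whose content the labels do not give. On control replicate 3 its log2 ratio of spot to background, averaged over 10 spots, was -0.03 for Bdnf, 0.29 for Cntf, -0.04 for Fgf2, -0.01 for Il1b and 0.05 for Il6, with a ten-spot median of 0.10. On MPP+ replicate 3 the same genes gave 0.02, -0.10, 0.07, 0.05 and 0.15, with a ten-spot median of 0.15. Cntf stood at percentile 85.6 on the first of these arrays and at 6.19 on the second.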
